A study of Drosophila melanogaster with 8 samples.

Results

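Heads of flies with wild-type Eyes absent (EYA) were compared with heads of control flies on 4 arrays, 2 a group, of the 8 in the series. The arrays were chosen by their sample titles. All 18769 probe sets that are not Affymetrix controls were considered, of 18952 on the array. Control flies were of the strain w1118 and carry neither a driver nor a transgene. The wild-type EYA flies came from crosses of Hsp-GAL4 flies to flies with UAS-EYA-wildtype and carried both elements. All flies were Drosophila melanogaster adults, males and females together, raised at 25 C, kept at 37 C for 1 h and returned to 25 C for 3 h before collection. The sources used here do not give the ages of the flies. RNA came from 200 heads in 4 lots of 50. The groups EYA-D493N and EYA-E728Q, 2 arrays each and treated in the same way, carried mutant transgenes and enter only at the end. No group with the driver alone is analysed here, so effects of wild-type EYA, of the Hsp-GAL4 driver, of the transgene insertion and of the strains' genetic background cannot be told apart in any comparison with control. Nothing in the labels tells whether duplicate samples were separate cultures, and a p-value therefore measures only the spread between these arrays, which may be technical.

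EYA is a nuclear protein of the retinal determination network. It has no DNA-binding domain of its own and activates transcription together with the homeodomain protein Sine oculis (So), and its conserved C-terminal domain is also a tyrosine phosphatase. In the GAL4-UAS system the yeast activator GAL4 turns on any gene placed behind its UAS sites. An Hsp promoter makes GAL4 in most cells after heat, so the transgene is not limited to the cells that normally express eya. An adult head holds photoreceptors, brain neurons and glia, fat body, muscle, haemocytes and cuticle-forming epidermis, and the measured RNA is the sum over them. In such a mixture, fewer cells of a type and less RNA per cell cannot be told apart.

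A signal below is the deposited intensity of a probe set, on a linear scale on which each array's median is 100. A log2 fold change is of quantile-normalized values after a constant of 17.5 was added, which understates the change of genes with low signals. The highest-signal 60% of probe sets, 11261, were tested with limma, and a gene was represented by its probe set of highest mean, which left 8660 genes. A gene is said to have risen or fallen where its Benjamini-Hochberg adjusted p was under 0.05. Counts are of calls with all arrays, while each gene named as having risen or fallen also kept its call in all of the 11 alternative settings that tested it, unless a lost call is stated beside it. Where a count of called genes is followed by 4 counts in square brackets, these are the counts without control replicate 1, control replicate 2, wild-type replicate 1 and wild-type replicate 2, in that order, and the median is that of the list's log2 fold changes with all arrays. Replicate arrays correlated at r = 0.9903 in control and r = 0.9908 with wild-type EYA over the tested probe sets, which are not independent replicates. The ratio of 3' to 5' signal of Act5C, a measure of RNA integrity, lay between 4.15 and 4.35 on the 4 arrays.

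The tissue label was borne out by markers. Summed signals of 5 photoreceptor markers were 98574 to 101193 in control and 94266 to 103279 with wild-type EYA, and those of 8 neuronal markers were 26019 to 27978 and 24081 to 26083. In limma's fit, 0 of the 8 neuronal markers and 0 of 11 tested muscle markers were called (1 and 2 at an unadjusted p under 0.05), while 1 of the 5 photoreceptor markers was, Arr1 at 0.20, a call lost without control replicate 1 (adjusted p = 0.116), without control replicate 2 (0.0641), without wild-type replicate 1 (0.107), without wild-type replicate 2 (0.091), with deposited values without quantile normalization (0.526) or with no filter (0.12). Muscle sums were 97137 to 104734 in control and 111663 to 120593 with wild-type EYA, groups that do not overlap. With only the 4 arrays compared in the fit, 7 of the 11 muscle markers were called, all higher, and 2 of the 8 neuronal markers, both lower.

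No rise was measured for eya itself. The eya probe set had signals of 991 and 918 on the control arrays and 916 and 915 on the wild-type EYA arrays, with log2 fold change -0.04, SE 0.12, adjusted p = 0.855. Both wild-type EYA arrays lay just under the lower control array. The sources used here do not say whether this probe set lies in the sequence that the transgene carries, so the value does not test whether wild-type EYA was expressed.

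Many genes differed between wild-type EYA and control heads, in both directions. Of 8660 genes, 2069 were called, 23.9%, of which 1053 (12.2%) were higher and 1016 (11.7%) lower with wild-type EYA. A change of at least 2-fold was found for 355 genes (4.1%) that rose and 203 (2.34%) that fell. In all of the 11 alternatives that tested them, 946 of the 8660 genes (10.9%) kept their call, 539 higher and 407 lower. The deposited values of the groups did not overlap for 2238 genes (25.8%) that were higher and 3342 (38.6%) that were lower, before normalization. The median log2 fold change over all genes was -0.03.

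**Figure D1:**
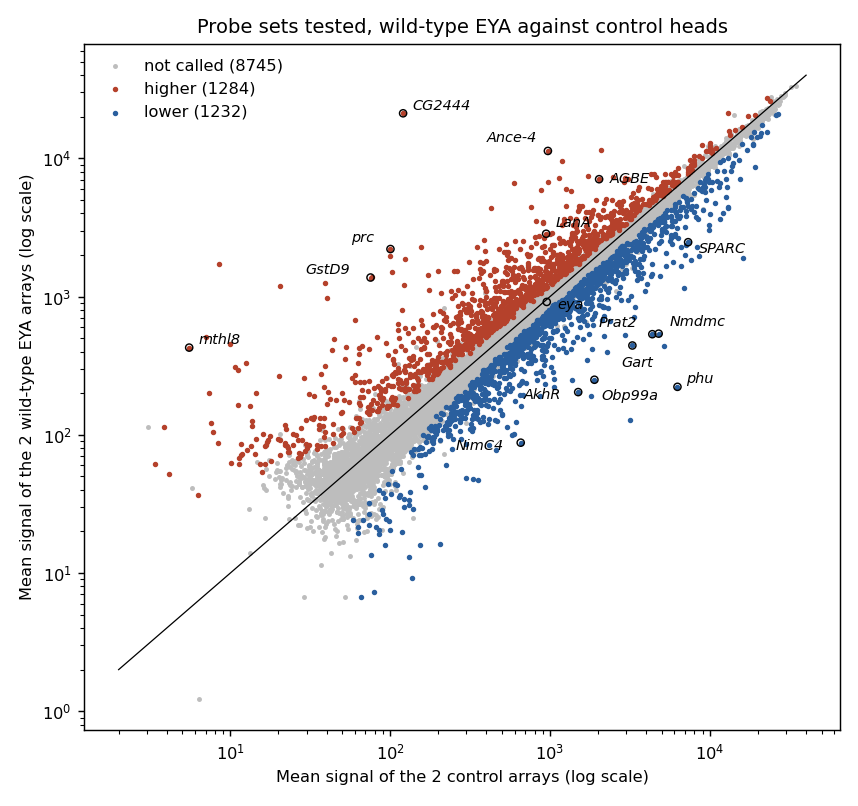
Mean signal of the 2 wild-type EYA arrays against mean signal of the 2 control arrays for each of the 11261 tested probe sets, both axes on a log scale. Red points are the 1284 probe sets called higher and blue points the 1232 called lower, grey points were not called, and the line marks equal signal. CG2444 and phu, with the largest positive and negative log2 fold changes, stand far above and far below the line, while eya lies close to it.

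Among the genes with signals of at least 100 in both groups, the changes ran across secreted enzymes, matrix proteins, metabolism and genes with no assigned function. CG2444, a gene without an assigned role here, had signals of 149 and 92.1 on the control arrays and 22358 and 20032 on the wild-type EYA arrays, the largest rise of all tested genes (log2 fold change 7.41, SE 0.15, adjusted p = 7.66e-08). The next were prc, for the collagen-like matrix protein Pericardin of the heart (4.28), CG12105 (3.81) and the ecdysone-induced cyclin-dependent kinase gene Eip63E (3.80). After them came Nepl4 (3.79) and Ance-4 (3.55), of metallopeptidase families. Arc2, related to the capsid-forming synaptic gene Arc1, rose by 3.17. Its signals were 128 and 117 on the control arrays and 1269 and 1155 on the wild-type EYA arrays. Actbeta, an activin-type ligand of the TGF-beta family, rose by 2.98, from 188 and 156 in control to 1491 and 1374. The splicing factor gene Prp40 rose by 2.87, CG4752 by 3.48, CG32191 by 3.37, CG34136 by 2.82 and CG5196 by 2.76. In each of these genes both wild-type EYA arrays lay above both control arrays, which the rule that chose them requires.

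The largest falls were in phu, from 6728 and 5814 in control to 258 and 187 with wild-type EYA (log2 fold change -4.65, SE 0.22, adjusted p = 3.22e-06), and in CG5966, from 3326 and 3001 to 136 and 121 (log2 fold change -4.45, SE 0.35, adjusted p = 4.37e-05). CG10513 (-3.46), CG6067 (-3.16), CG13315 (-2.98), CG15096 (-2.40) and CG33296 (-2.39) fell as well, and so did rost, known for myoblast fusion in the embryo (-2.44).

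Some genes were near the floor of detection in 1 group. The receptor gene mthl8 had signals of 4.86 and 6.2 on the control arrays and 455 and 400.4 on the wild-type EYA arrays, and a separate mthl8 probe set gave a log2 fold change of 3.56. The ecdysone-synthesis gene sad had signals of 7.51 and 6.61 on the control arrays and 421 and 594 on the wild-type EYA arrays, and slam, which acts in cellularization of the embryo, 33.1 and 47.9 on the control arrays and 985 and 980.5 on the wild-type EYA arrays. In the other direction the metallothionein gene MtnB, whose product binds heavy metals, had signals of 114 and 160.3 on the control arrays and 4.2 and 14.3 on the wild-type EYA arrays. The groups did not overlap in any of these, which the rule that chose them requires. Fold changes of such genes depend on the constant that was added, and the alternatives gave 2.85 to 6.11 for mthl8 and -3.89 to -1.45 for MtnB. Among them, Alp9 (-2.30) lost its call without control replicate 2 (adjusted p = 0.0729).

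Purine synthesis and the one-carbon (folate) cycle were lower as a group. De novo purine synthesis builds the ring of adenine and guanine stepwise on ribose phosphate and takes carbons from folate. Of 20 tested enzymes, 15 fell and 2 rose, 85% called against the 23.9% of all genes, with 17 in all [13, 15, 14 and 14, median -0.75], and 10 that fell and 2 that rose kept their calls in every alternative. Nmdmc, a mitochondrial enzyme that interconverts folate-bound carbon, had signals of 5189 and 4377 on the control arrays and 566 and 514 on the wild-type EYA arrays (log2 fold change -3.03, SE 0.12, adjusted p = 1.25e-06). Prat2, for the amidotransferase that commits ribose phosphate to the purine pathway, had signals of 4523 and 4207 on the control arrays and 553 and 516 on the wild-type EYA arrays (log2 fold change -2.93, SE 0.13, adjusted p = 2.42e-06). Gart, for a trifunctional enzyme of 3 later steps, had signals of 3393 and 3158 on the control arrays and 492 and 394 on the wild-type EYA arrays (log2 fold change -2.82, SE 0.13, adjusted p = 3.22e-06). The groups lay far apart in all 3 genes, which were named for their large changes.

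The steps around them moved less. The pathway enzyme genes Paics and Pfas fell by 0.97 and 0.69 on the log2 scale, and Shmt, which loads folate with a carbon from serine, by 1.00. Sardh, which breaks down sarcosine, fell by 0.81, the adenosine deaminase genes Adgf-A and Adgf-D by 0.83 and 0.87, and ry, for xanthine dehydrogenase at the end of purine breakdown, by 0.84. Gnmt, which methylates glycine, had a log2 fold change of -1.14, and was no longer called when control replicate 1 was left out (adjusted p = 0.0514). Sam-S, the source of the cell's methyl donor, was at -0.35, with a call lost without wild-type replicate 1 (adjusted p = 0.0546). The paralogue Prat, for the same amidotransferase step as Prat2, went the opposite way, from 302 and 333 in control to 837 and 787 with wild-type EYA (log2 fold change 1.34, SE 0.14, adjusted p = 0.000225). Adss, on the branch from inosine to adenosine monophosphate, also rose (0.51). The IMP dehydrogenase gene ras, the GMP synthetase gene bur and pug, for a trifunctional folate enzyme, were not called (log2 fold changes of -0.17, -0.03 and 0.29). Against D493N and E728Q, 0 of the 20 were called in limma's fit (2 and 3 at an unadjusted p under 0.05), where 1.19% and 0.727% of all genes were called.

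**Figure D2:**
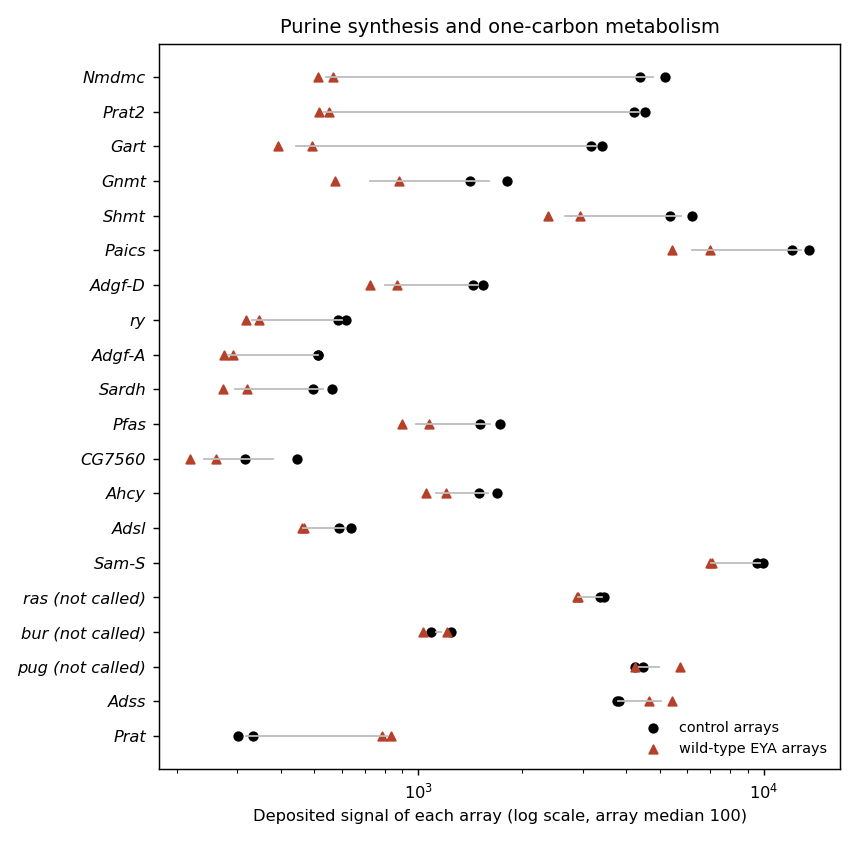
Signal of each array, on a log scale, for the 20 tested genes of purine synthesis and one-carbon metabolism, with black circles for the 2 control arrays, red triangles for the 2 wild-type EYA arrays and a grey line between the group means. Nmdmc, Prat2 and Gart are the widest apart, and Prat and Adss are the only called genes with wild-type EYA to the right.

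Genes of fat and sugar stores differed in both directions. These stores are set through adipokinetic hormone, which mobilizes them, and insulin-like peptides, which build them. Of 40 tested genes, 16 fell and 10 rose, 26 in all (65% against 23.9% over all genes) [20, 18, 18 and 21, median -0.26], and 13 and 3 kept their calls throughout. AkhR, the receptor of adipokinetic hormone, fell from 1604 and 1398 in control to 189.9 and 218 (log2 fold change -2.78, SE 0.22, adjusted p = 4.69e-05), and a separate AkhR probe set gave -1.68. The lipase gene Lip4 fell by 2.12 and mdy, for the acyltransferase that completes triglycerides, by 1.56. Lsd-2, a perilipin on lipid droplets, fell by 1.02, while the other perilipin gene, Lsd-1, was at 0.84, a call lost without control replicate 1 (adjusted p = 0.0857), without control replicate 2 (0.113) or without wild-type replicate 1 (0.141). Apoltp, which loads lipid onto circulating lipoprotein, fell by 0.99. ACC, for the enzyme that commits carbon to fatty acid synthesis, was at 0.43, a call lost on deposited values without normalization (adjusted p = 0.0663). The gene whd, for carnitine palmitoyltransferase in the burning of fat in mitochondria, fell by 0.64. Mtp, a lipid transfer gene listed with the lipoprotein genes, fell by 0.56.

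On the sugar side, tobi, a glucosidase gene that responds to insulin and adipokinetic hormone, fell by 1.40, the trehalose transporter gene Tret1-1 by 0.78 and the trehalase gene Treh by 0.47. AGBE, the branching enzyme of glycogen, rose from 2066 and 1991 in control to 7558 and 6582 (log2 fold change 1.87, SE 0.08, adjusted p = 2.49e-06), and sug, a zinc-finger regulator that responds to dietary sugar, from 392 and 341 to 1995 and 1561 (log2 fold change 2.25, SE 0.14, adjusted p = 1.14e-05). Of the hormones, Ilp2, an insulin-like peptide of the brain, rose by 0.57, while ImpL2, a secreted protein that binds insulin-like peptides, fell by 0.84. The lipocalin genes NLaz and GLaz fell by 0.72 and 0.50. Against D493N and E728Q, 0 of the 40 were called in limma's fit, where 1.19% and 0.727% of all genes were called. At an unadjusted p under 0.05 there were 15 and 7 of the 40, against 1662 and 1185 of all 11261 probe sets. The absence of calls therefore does not show equal levels.

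Fat body markers also differed in both directions, and their list shares apolpp and FASN1 with that of fat and sugar stores. Of 7 tested, 4 were lower and 2 higher [4, 3, 4 and 4], and their summed signal was 79257 to 84849 in control and 65785 to 77445 with wild-type EYA. Cyp4g1, for a P450 enzyme of hydrocarbon synthesis, was put in this list and fell by 2.45, which by itself does not show less fat body. The clotting factor gene fon fell by 0.98, while Lsp2, a larval storage protein, rose by 1.49. The part of fat body in the metabolic differences was not tested.

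Detoxification families held both falls and rises. Of 72 tested cytochrome P450 genes, 22 fell and 10 rose, 32 in all (44.4% against 23.9% over all genes) [22, 21, 21 and 21, median -0.14], of which 13 and 5 kept their calls throughout. Of 30 glutathione transferase genes, 11 fell and 5 rose, 16 in all (53.3%) [8, 8, 9 and 7, median -0.22]. For 17 UDP-glycosyltransferase genes, 6 fell and 2 rose, 8 in all (47.1%) [7, 5, 5 and 7, median -0.37]. Cyp4g1 had signals of 578 and 609.5 on the control arrays and 132 and 70.9 on the wild-type EYA arrays, while Cyp6a14, Cyp4ac1 and Cyp9h1 fell by 1.39, 1.24 and 1.19. Within the same Cyp6a group of P450 genes, Cyp6a23 rose from 392 and 376 in control to 2747 and 2416 (log2 fold change 2.74, SE 0.12, adjusted p = 2.17e-06), and the insecticide-metabolizing Cyp6a2 by 1.24. Cyp12c1 rose by 1.95 and Cyp4aa1 by 1.75.

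The transferase families also moved in both directions. GstD9 rose from 75.1 and 75.6 in control to 1489.9 and 1259 (log2 fold change 3.94, SE 0.16, adjusted p = 1.87e-06), and GstD10 rose by 0.87, whereas their family member GstD2 fell by 1.36, and GstE3, GstE2 and GstT1 by 0.83, 0.74 and 0.66. GstO2, an omega-class enzyme gene, rose by 0.75 on its main probe set and by 3.08 on a separate probe set of lower signal, 45.5 and 43.8 on the control arrays and 511 and 484 on the wild-type EYA arrays. Ugt35C1 fell from 1803 and 1605 in control to 365 and 330.3 (log2 fold change -2.23, SE 0.11, adjusted p = 3.98e-06), and Ugt35B1 by 1.03, while Ugt36E1 rose by 2.11. Members of these families are similar in sequence, and the sources used here do not say which probe sets could detect more than 1 member.

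Immune genes differed in both directions. Flies sense bacterial peptidoglycan through the Imd and Toll pathways, which act on antimicrobial genes in fat body, while haemocytes engulf particles through receptors such as the Nimrod family. Of 18 genes for phagocytosis receptors, thioester proteins and phenoloxidases, 7 rose and 5 fell, 12 in all (66.7% against 23.9% over all genes) [10, 9, 10 and 9, median 0.08]. All 7 that rose kept their calls throughout, and they hold every tested member of the NimB series. NimB1 had signals of 128 and 96.3 on the control arrays and 660.1 and 601 on the wild-type EYA arrays, NimB5 544 and 531 on the control arrays and 2171 and 1833 on the wild-type EYA arrays, and NimB3 903 and 707 on the control arrays and 2845 and 2511 on the wild-type EYA arrays, with log2 fold changes of 2.36, 1.88 and 1.75. The phagocytic receptor gene NimC1 rose by 1.79 and the prophenoloxidase gene PPO1, for melanization, by 1.11. NimC4, a receptor for dying cells carried by glia and haemocytes, went the other way, from 692 and 619 in control to 87.4 and 88 (log2 fold change -2.72, SE 0.22, adjusted p = 5.77e-05), and Tep4 fell by 0.32. Of 9 haemocyte markers, which include NimC1 and PPO1, 3 rose and 2 were lower [3, 3, 5 and 3], and their summed signal was 4195 to 4577 in control and 4962 to 5509 with wild-type EYA. The part of haemocyte number in these differences was not tested.

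Of 29 genes of peptidoglycan recognition and of the Imd and Toll pathways, 10 rose and 7 fell, 17 in all (58.6% against 23.9% over all genes) [10, 12, 12 and 11, median 0.13]. Of these, 6 and 4 kept their calls throughout. PGRP-SC2, an amidase that digests peptidoglycan, had signals of 103 and 95.5 on the control arrays and 2069 and 1880.5 on the wild-type EYA arrays (log2 fold change 4.15, SE 0.19, adjusted p = 2.49e-06). The Imd inhibitor gene pirk rose by 1.68, the Toll-pathway kinase gene pll by 2.02, and GNBP3, a sensor of fungal glucans, by 1.16. The Toll receptor gene Tl fell from 2600.4 and 2043 in control to 1108 and 1055 (log2 fold change -1.03, SE 0.09, adjusted p = 9.49e-05), cact, the inhibitor of the pathway's transcription factors, by 0.48, the protease gene SPE, which activates the Toll ligand, by 0.48, and the amidase gene PGRP-SB1 by 1.65. The adaptor gene imd was at -0.93, a call lost without control replicate 1 (adjusted p = 0.0674) or without wild-type replicate 2 (0.0547).

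Of 13 antimicrobial and humoral effector genes, 4 fell and 1 rose, 5 in all (38.5% against 23.9% over all genes) [5, 5, 5 and 6, median -0.02]. TotC, a stress-induced humoral factor, fell from 2513 and 2209 in control to 824 and 504 (log2 fold change -1.82, SE 0.31, adjusted p = 0.00298). The Bomanin genes BomBc3, BomBc2 and BomS2, short peptides secreted under Toll control, had log2 fold changes of -1.63, -1.46 and -1.09, and Listericin, an antibacterial peptide gene, rose by 0.48. Bomanin genes are related in sequence. The sources used here do not say which of their probe sets could detect more than 1 of them. The value of a single gene is therefore uncertain.

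Genes of peptidase families and of the matrix included some of the largest rises. Neprilysins and Ance proteins belong to zinc peptidase families, some members of which cut peptide hormones outside cells. Not every member is an active enzyme, and enzyme activity was not tested. Of 26 tested, 7 rose and 5 fell, 12 in all (46.2% against 23.9% over all genes) [10, 10, 9 and 11, median 0.11]. Nepl4 had signals of 161 and 150.4 on the control arrays and 2399 and 2196 on the wild-type EYA arrays, Ance-4 1008 and 933 on the control arrays and 12220.2 and 10421 on the wild-type EYA arrays, and Nep7 331 and 293 on the control arrays and 1939.9 and 1624 on the wild-type EYA arrays, all without overlap. Nep4 rose from 694 and 732 in control to 2159.7 and 1890.0, while Nepl11 and Nepl10 fell by 1.17 and 1.03. A separate probe set of Ance-3 (-0.01) did not share the rise of its main probe set (0.63).

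Of 20 genes of basement membrane and matrix, 4 were higher and 3 lower, 7 in all (35% against 23.9% over all genes) [4, 3, 4 and 3, median -0.12]. LanA, the alpha chain of laminin, rose from 940.0 and 952 in control to 2999 and 2699 (log2 fold change 1.61, SE 0.17, adjusted p = 0.000217), and prc from 96.2 and 105 to 2303 and 2114. The beta and gamma chain genes LanB1 and LanB2 were at -0.45 and -0.46, and both of those calls were lost without any 1 of the 4 arrays (adjusted p from 0.0558 to 0.175). SPARC, a collagen-binding glycoprotein of basement membranes, fell from 7633 and 6996 to 2679 and 2271 (log2 fold change -1.44, SE 0.10, adjusted p = 2.45e-05). Of 13 imaginal disc growth factor and chitinase genes, 6 were lower and 0 higher (46.2%) [3, 4, 5 and 3, median -0.66]. Idgf3 at -1.75, Idgf5 at -1.25 and Idgf2 at -0.60 were the 3 that kept their calls throughout. Idgf proteins are secreted relatives of chitinases.

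**Figure D3:**
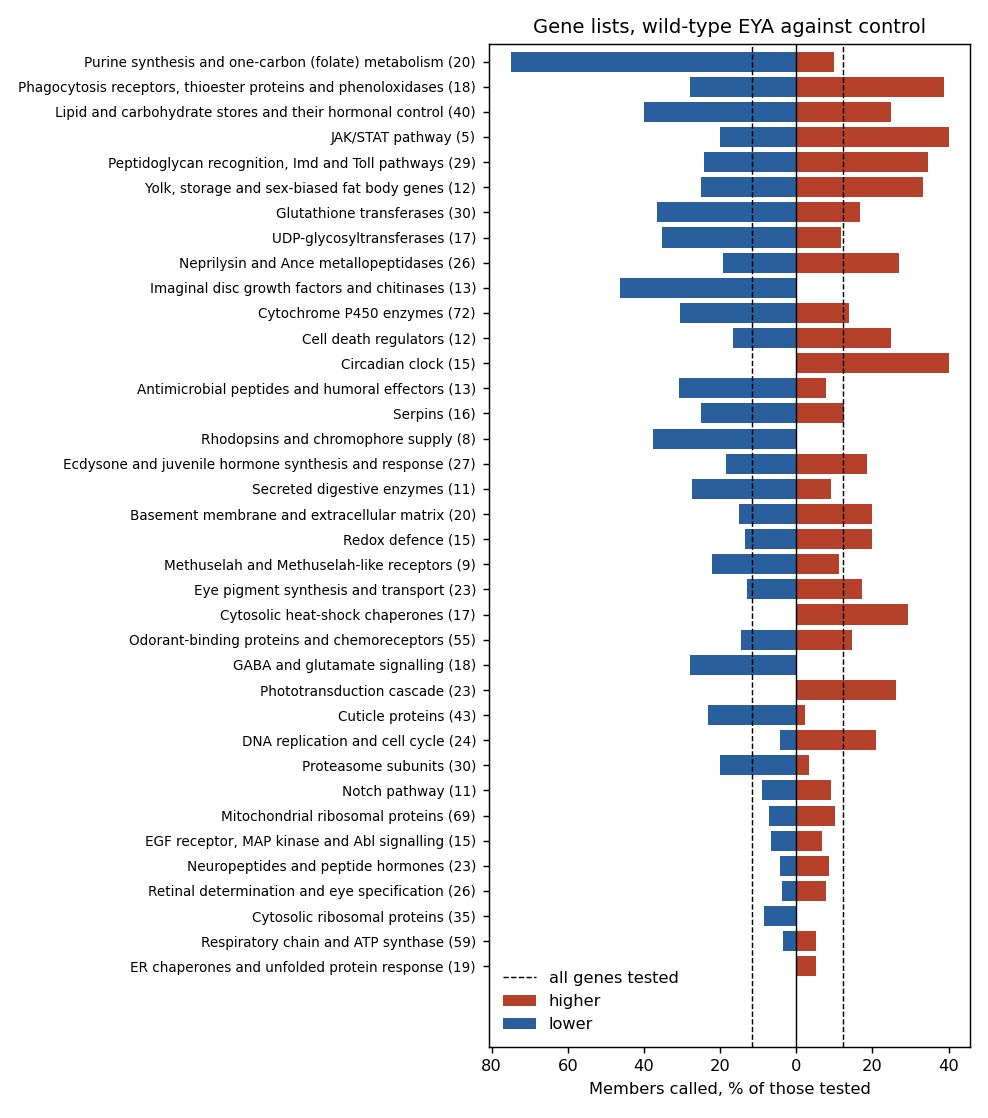
Share of tested members called higher (red, to the right) and lower (blue, to the left) with wild-type EYA for 37 gene lists, with the number tested in brackets and dashed lines at 12.2% higher and 11.7% lower, the shares over all tested genes. The purine and one-carbon list reaches farthest to the left, and the lists of ER chaperones, respiratory chain, ribosomal and eye specification genes stay within the dashed lines.

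Few genes of the eye's own programme were called. Of 26 retinal determination and eye specification genes, 2 were higher and 1 lower [1, 1, 1 and 1, median -0.04], a share of 11.5% against 23.9% over all genes. Only dpp, the BMP-type ligand that drives the moving front of eye differentiation, kept its call throughout, with signals of 383 and 385 on the control arrays and 573 and 568 on the wild-type EYA arrays (log2 fold change 0.56, SE 0.09, adjusted p = 0.00197). EYA's partner so was at 0.38 (adjusted p = 0.0868), ey at -0.10 (0.525), Optix at -0.16 (0.47) and toy at 0.02 (0.9), and none of these was called. Signals of so were 327 and 343 on the control arrays and 431 and 433 on the wild-type EYA arrays, higher on both wild-type EYA arrays.

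Of 23 phototransduction genes, 6 were higher and 0 lower (26.1% called against 23.9% over all genes) [1, 2, 1 and 2, median 0.11]. Only laza kept its call throughout, a phosphatase gene that tunes the lipid signal of photoreceptors. It rose from 2382 and 2130.2 in control to 5379 and 4845 with wild-type EYA (log2 fold change 1.24, SE 0.09, adjusted p = 2.57e-05). The other 5 were between 0.18 and 0.73. Of 8 rhodopsin and chromophore genes, 3 were lower (37.5%), among them the retinoid-binding pinta (-0.83) and the carotenoid-cleaving ninaB (-0.45), both kept throughout. Of 23 eye pigment genes, 4 were higher and 3 lower (30.4%) [6, 6, 6 and 6, median -0.06]. The transporter gene bw, which carries red pigment precursors, rose by 1.43, and mal, whose product activates xanthine dehydrogenase, by 1.47. On the pteridine route, se, for an enzyme that makes red drosopterins, fell from 8721 and 7945 in control to 2208 and 2351 (log2 fold change -1.74, SE 0.17, adjusted p = 0.000143), and pr, for an earlier step, by 0.69.

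The clock genes that were called were all higher with wild-type EYA. In the fly clock, Clock and Cycle switch on per and tim, whose proteins then shut the cycle down. Of 15 tested genes, 6 were higher and 0 lower (40% called against 23.9% over all genes) [4, 5, 5 and 5, median 0.22]. The gene per had signals of 512 and 512 on the control arrays and 2229.8 and 1963 on the wild-type EYA arrays (log2 fold change 2.02, SE 0.09, adjusted p = 2.17e-06). vri, a repressor of Clock, rose by 0.87, and Pdf, the peptide of the clock neurons, by 0.64. tim was at 0.54, a call lost on deposited values without normalization (adjusted p = 0.0675). The sources used here do not give the time of day of collection, so a difference in time between groups cannot be told apart from one in level. Of 23 neuropeptide and hormone genes, 2 rose, Pdf and CCHa2 (0.91), and 1 was lower (13% called).

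Of 27 genes of ecdysone and juvenile hormone, 5 were higher and 5 lower, 10 in all (37% against 23.9% over all genes) [5, 6, 4 and 3, median -0.02]. sad and Eip63E rose as given above, and MsrA, an ecdysone-induced enzyme that repairs oxidized methionine, by 0.53. Of 18 GABA and glutamate genes, 5 were lower and 0 higher (27.8%) [1, 3, 2 and 2, median -0.14]. Gs1, for glutamine synthetase, fell by 0.65 and kept its call. Gat, the GABA transporter of astrocytes, had the largest difference in the list, from 2783 and 2394 in control to 1006 and 986 (-1.31), a call lost without control replicate 1 (adjusted p = 0.0637), without wild-type replicate 1 (0.0573) or without wild-type replicate 2 (0.0528). Of 7 glial markers, 1 rose and 1 was lower [2, 1, 1 and 1], with a median of -0.19 over the 7. moody, a receptor of the blood-brain barrier glia, rose by 1.30, and alrm, a gene of astrocytes, was at -0.79, a call lost without control replicate 1 (adjusted p = 0.0928), without control replicate 2 (0.117), without wild-type replicate 1 (0.087) or without wild-type replicate 2 (0.12). Summed glial signals were 19453 to 20227 in control and 19972 to 20846 with wild-type EYA.

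Replication and cell-cycle genes were called about as often as all genes, 25% against 23.9%. Single genes of this list and of signalling pathways had large differences. Of 24 replication and cell-cycle genes, 5 were higher and 1 lower [4, 4, 4 and 4, median 0.21]. Mcm2, a subunit of the replicative helicase, had signals of 105 and 155 on the control arrays and 596 and 502 on the wild-type EYA arrays (log2 fold change 1.98, SE 0.30, adjusted p = 0.00158), the retinoblastoma gene Rbf rose by 1.65, the origin-binding gene Orc1 by 1.32 and the repressive E2f2 by 0.64. Of 12 cell death genes, 3 were higher and 2 lower (41.7%). The TNF ligand gene egr rose by 0.80, while its receptor gene grnd fell by 1.07. The Bcl-2-type gene Debcl rose by 0.86, and the caspase gene Strica fell by 0.77.

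Of 5 tested JAK/STAT pathway genes, 3 were called (60% against 23.9% over all genes). The receptor gene dome rose by 0.57. The gene et, for a short receptor-like antagonist, rose from 82.1 and 51.2 in control to 433 and 438 (log2 fold change 2.48, SE 0.23, adjusted p = 0.000116). Stat92E, the transcription factor, fell by 0.44. Of 11 tested Notch pathway genes, 2 were called (18.2%). H, the co-repressor Hairless, rose by 1.31, and pen-2, of the gamma-secretase complex, fell by 0.60. Of 15 EGF receptor, MAP kinase and Abl genes, 1 was higher and 1 lower (13.3%). The actin regulator gene ena rose by 0.67, and the receptor gene Egfr was at -0.71, a call lost without control replicate 1 (adjusted p = 0.0905) or without wild-type replicate 2 (0.0883).

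Of 59 respiratory chain genes, 3 were higher and 2 lower (8.47% against 23.9% over all genes), and of 35 cytosolic ribosomal protein genes 0 and 3 (8.57%). Of 69 mitochondrial ribosomal protein genes, 7 were higher and 5 lower (17.4%), and of 19 ER chaperone genes 1 and 0 (5.26%). Of 17 cytosolic heat-shock chaperones, 5 were higher and 0 lower (29.4%) [2, 4, 2 and 3, median 0.19], and only Cdc37, a partner of Hsp90, kept its call throughout (1.05). Proteasome genes were 6 lower and 1 higher of 30 (23.3%) [1, 3, 1 and 5, median -0.15]. Without control replicate 1 or wild-type replicate 1, a single call was left. The 6 lower ones were between -0.38 and -0.24, while Prosbeta2R2, a variant of a catalytic subunit, rose from 7.95 and 32.2 in control to 279 and 258 (log2 fold change 3.03, SE 0.28, adjusted p = 0.000111). The succinate dehydrogenase relative SdhBL rose likewise, from 3.53 and 4.13 to 118 and 108, apart from its paralogue SdhB (0.33), a call lost without control replicate 1 (adjusted p = 0.165), without control replicate 2 (0.0521), without wild-type replicate 1 (0.165), without wild-type replicate 2 (0.0593) or with deposited values without quantile normalization (0.227). Of 7 tested testis and accessory gland markers, 0 were called in limma's fit and 0 had an unadjusted p under 0.05, while 1 was called lower with only the 4 arrays compared. Their summed signals were 1816 to 2463 in control and 1368 to 1540 with wild-type EYA.

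Superoxide dismutase gave opposite values from its probe sets. The main probe set of Sod3, the extracellular enzyme, fell by 0.59, with signals of 2563 and 2345 on the control arrays and 1547 and 1580.5 on the wild-type EYA arrays. A separate Sod3 probe set rose by 3.19, with signals of 68.4 and 51.7 on the control arrays and 664 and 696 on the wild-type EYA arrays, so no direction can be given for the gene. Among the 749 genes with several tested probe sets, 5 were called in opposite directions.

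Of 55 tested odorant-binding protein and chemoreceptor genes, 8 were higher and 8 lower, 16 in all (29.1% against 23.9% over all genes) [9, 17, 8 and 9, median 0.07]. Obp99a fell from 1846 and 1946 in control to 318 and 182 (log2 fold change -2.88, SE 0.24, adjusted p = 5.77e-05), while its relative Obp99d rose by 1.82 and Obp8a by 1.62. The ionotropic receptor gene Ir76a fell by 2.40. Of 43 cuticle protein genes, 10 were lower and 1 higher, 11 in all (25.6%) [4, 4, 3 and 5, median -0.20], and TwdlT (-1.13), Cpr51A (-0.72) and Cpr67B (0.90) kept their calls throughout. Of 16 serpins, which inhibit serine proteases, 6 were called (37.5%). Spn88Eb fell by 1.17 and Spn28Dc by 0.54, and Spn47C rose by 0.78, the 3 that kept their calls. Of 4 tested midgut markers, 1 fell, Mal-A1 (-1.23), and the summed signals were 376 to 499 in control and 239 to 240 with wild-type EYA. For secreted digestive enzymes, 3 were lower and 1 higher of 11 (36.4%), and the part of gut tissue in them was not tested.

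Some called genes lay side by side on a chromosome. Among 8624 genes placed in RefSeq order on Release 6 plus ISO1 MT, there were 13 runs of at least 4 tested genes in a row called in the same direction, 7 higher and 6 lower, with 65 genes and at most 7 in a run. On arm 2L, NimB1 to NimB5 formed a run of 5 that rose, and all 5 were called without each of the 4 arrays. On arm 3L, Ten-m, laza, CG11438, CG11437, CG11426 and CG11425 formed a run of 6 that rose, again all kept. There laza is one of a cluster of lipid phosphate phosphatase genes, and CG11425 rose most, from 1243 and 1136 in control to 10399.6 and 8747 (log2 fold change 3.04, SE 0.11, adjusted p = 1.17e-06). On arm 2R, 6 Bomanin genes and Idgf5 formed a run of 7 that were lower, of which BomS6 lost its call without each array in turn (adjusted p from 0.0535 to 0.121). On arm 3R, a run of 7 from CG5500 to Tsp97E was lower, with 5 to 6 called when 1 array was left out. On the X, per was the last of a run of 5 with Seipin, Pi4KIIIalpha, HLH3B and CG2652, in which HLH3B rose by 2.34 and CG2652 by 3.58, and 3 to 4 of the 5 were called when 1 array was left out. Neighbours share any strain difference linked to the region, and its part was not tested.

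**Figure D4:**
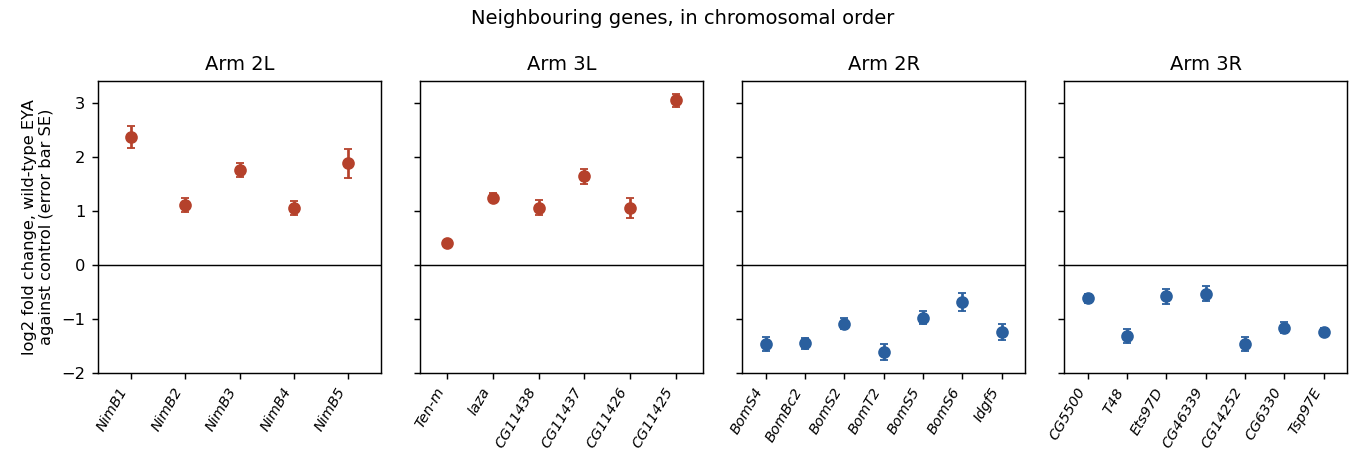
Log2 fold change of wild-type EYA against control, with its SE, for the genes of 4 of the 13 runs, in chromosomal order along arms 2L, 3L, 2R and 3R. All genes of the first pair of panels lie above 0 and all genes of the last pair below 0, which the choice of runs fixes, and CG11425 is the highest.

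By chromosome arm, 202 of 1415 genes on the X were higher and 110 lower, against 173 and 229 of 1544 on 2L, 235 and 233 of 1764 on 2R, 187 and 191 of 1689 on 3L, 245 and 244 of 2147 on 3R, and 5 and 8 of 65 on chromosome 4. Genes of the X have a different copy number in males and females, sexes were mixed, and the sources used here do not give the proportion of each per group. Of 12 yolk, storage and sex-biased genes, 4 were higher and 3 lower (58.3% called against 23.9% over all genes) [2, 3, 3 and 4, median -0.05]. The part of the sex ratio was not tested.

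Wild-type EYA was also compared with the mutants, of which D493N reduces the phosphatase activity and E728Q leaves little if any of it. In these comparisons the mutations cannot be told apart from differences between the transgene lines in insertion, genetic background or level of expression. These comparisons share the wild-type EYA arrays with the one against control. Few genes were called, 103 of 8660 (1.19%) against D493N and 63 (0.727%) against E728Q. Of 11261 probe sets, 130 (1.15%) were called against D493N, 70 higher (0.622%) and 60 lower (0.533%), and 80 (0.71%) against E728Q, 40 in each direction (0.355%). These became 38 higher and 86 lower, and 24 higher and 42 lower, on deposited values without quantile normalization, so the balance of directions depends on the scaling. The count against D493N also depended on single arrays, with 17 without wild-type replicate 1, 21 without wild-type replicate 2, 240 without D493N replicate 1 and 1021 without D493N replicate 2. Against E728Q it was 12 and 13 without wild-type replicates 1 and 2, and 29 and 11 without E728Q replicates 1 and 2. The 3' to 5' ratios of Act5C were 5.63 and 6.26 with D493N and 4.84 and 5.11 with E728Q, above those of the 4 arrays given earlier.

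Wild-type EYA differed from control and from both mutants, in the same direction, for 26 genes, 6 higher and 20 lower. That count ranged from 3 to 51 when 1 array was left out, with 3 without wild-type replicate 1, 5 without wild-type replicate 2, 12 and 3 without E728Q replicates 1 and 2, 15 and 16 without control replicates 2 and 1, and 50 and 51 without D493N replicates 1 and 2. Only the 5 genes in each direction with the largest change against control were followed gene by gene through the alternatives. Among these, LanA and SPARC kept both calls against the mutants in every alternative. The rest of the 26 were not checked in this way. LanA had signals of 940.0 and 952 on the control arrays, 2999 and 2699 on the wild-type EYA arrays, 563 and 796 on the D493N arrays, and 811 and 623 on the E728Q arrays, with log2 fold changes of 2.15 against D493N (adjusted p = 0.000719) and 2.05 against E728Q (adjusted p = 0.0011). SPARC had signals of 7633 and 6996 on the control arrays, 2679 and 2271 on the wild-type EYA arrays, 7069 and 6278 on the D493N arrays, and 6373 and 6781 on the E728Q arrays, with -1.33 (adjusted p = 0.000623) and -1.36 (adjusted p = 0.000624). In both genes the wild-type EYA arrays stood apart from the other 6, with LanA above them and SPARC below, a pattern that chose these genes.

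For Cyp6a2 the call against D493N was kept in every alternative, and that against E728Q (1.49) was lost without wild-type replicate 1 or E728Q replicate 2 (adjusted p up to 0.0537). CG12105, Obp57a, vib, Achl, Idgf3, CG14252 and CG18549 also met the rule, and each lost at least 1 of the calls without wild-type replicate 1 or 2. For Achl, a gene with signals of 487 and 346 on the control arrays, 79 and 90.8 on the wild-type EYA arrays, 364 and 281 on the D493N arrays, and 229 and 203 on the E728Q arrays, the adjusted p against E728Q reached 0.262. Of the 20 lower genes, 14 lie on arm 3R. That arm holds 2147 of the 8624 placed genes and 244 of the 1016 genes lower against control. Among the 14 are SPARC, Tl and 5 of the run from CG5500 to Tsp97E. These neighbours share any strain difference linked to that region, and its part was not tested.

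**Figure D5:**
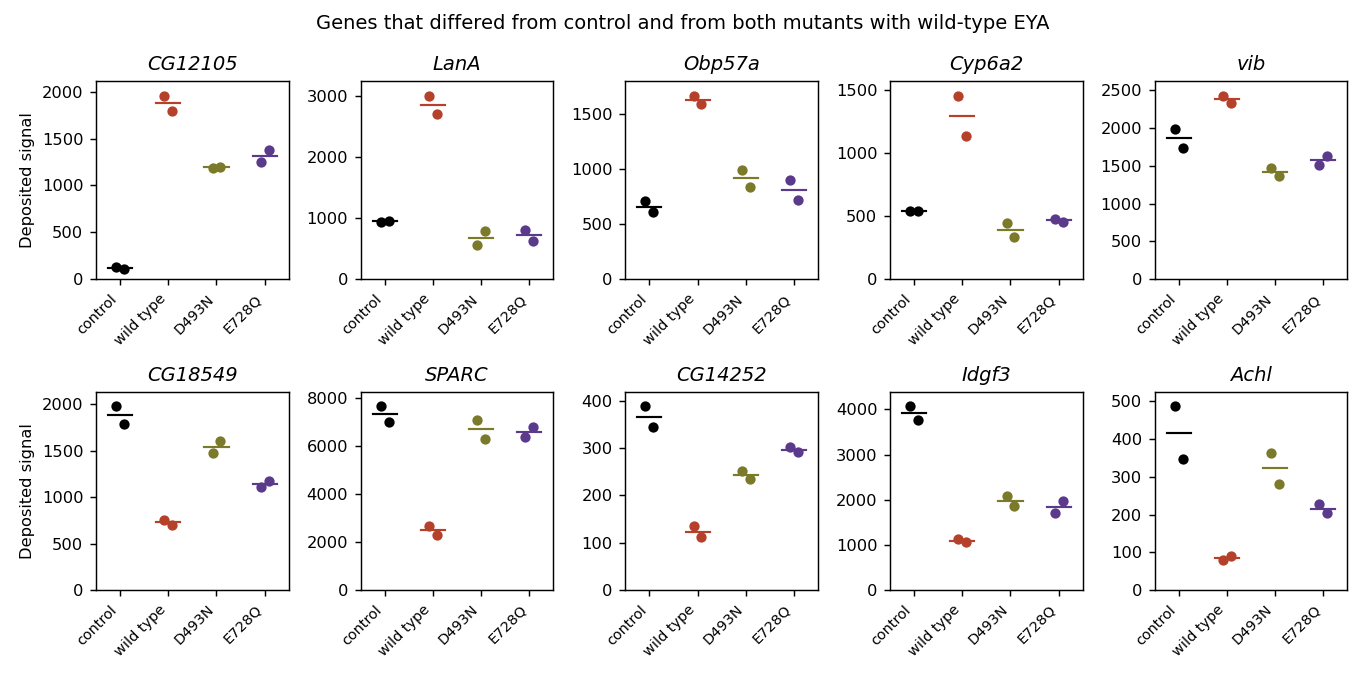
Deposited signal of each array, on linear axes from 0, for the 5 genes in each direction that differed most from control and were also called against both mutants, with a horizontal line at each group's mean of 2 arrays. The wild-type EYA points lie above the other groups in the upper row and below them in the lower row, a pattern that chose these genes, and CG12105 is also above control in both mutants.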

How the data were processed

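Single-colour Affymetrix arrays carried biotin-labelled cRNA made from 2 µg of total RNA. Each deposited value is the linear intensity of 1 probe set on 1 array, scaled so that the array's median is 100. The submitters' processing notes name GCOS, Affymetrix's array software, and the sources used here do not give its version, background correction or summary method. With 2 arrays a group, their number limits the precision.

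Values were quantile normalized over the 8 arrays and log2 transformed after adding 17.5, their 25th percentile. The 183 Affymetrix controls were left out, and the 60% of the other probe sets with the highest mean were tested (lowest mean 38.1). All 8 arrays entered 1 linear model that gave each group its own mean (limma 3.58.1, R 4.3.3), with eBayes following the mean level (4 residual and 4.75 prior degrees of freedom). Two-sided p-values were adjusted by the Benjamini-Hochberg method over every tested probe set. The fit was tested on simulated data. In the array annotation, 13647 probe sets have 1 gene symbol, 402 have several and 4903 have none. Of the 13647, 13544 were matched by gene identifier to the annotation of Release 6 plus ISO1 MT, used only for names, arms and neighbours.

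Genes named for the size of their change were called, without overlap of deposited values. In each direction they are the 15 with the largest change and signals of at least 100 in both groups, the 8 of largest change among the others, and the 5 of largest change also called against both mutants. Up to 6 called members of each list in each direction and members of runs were named whether or not their values overlapped. The gene eya and the eye specification genes were named whether called or not. ACC, Adgf-A, Adgf-D, Pfas, Sam-S, Sardh, ras, bur, pug, GLaz, NLaz, ImpL2, Mtp, Treh, Tret1-1 and whd lie outside those rules and were chosen after their values were seen. The comparison, its 37 gene lists, 9 marker lists and tests were chosen with earlier results of these data known. Same-numbered replicates did not deviate together in every pair of groups (correlations from -0.14 to 0.09), so the numbers were not taken as pairs. The alternatives were no quantile normalization, constants of 1 and 64, no filter, the highest-signal 40%, only the arrays compared, a replicate block, and each array left out.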

Additional observations from a re-analysis of the deposited data

How the results depend on the processing

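Of 3810 values of the 352 named genes under the alternatives, 3299 stayed on their side of the threshold, 507 fell short of it and 4 newly passed it. The genes called had 0 changes of sign, and 9 of the genes not called had 14, toy among them. Of the 329 named genes called, 187 kept their call throughout. The 2516 probe sets called against control became 1413 to 1500 with 1 array left out, with the remaining array of that group taken to vary as the other groups do. The other alternatives gave 2186 to 3445, among them 2304 with a replicate block. The 130 called against D493N became 86 with the replicate block, 17 with only the 4 arrays compared, and 17 to 1021 with 1 array left out. The 80 called against E728Q became 46 without a filter, 46 with the replicate block, 231 with only the 4 arrays compared, and 11 to 29 with 1 array left out. On deposited values 30.6% of the calls against D493N were higher with wild-type EYA (53.8% after normalization), and 36.4% of those against E728Q (50%). The causes were not tested. Of the 946 genes whose calls against control were kept throughout, 539 were higher. Signals near background limit the size of changes in dim genes.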

Other observations

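Among tested probe sets without a single gene symbol in the annotation used, 158 of 1490 were higher and 130 lower with wild-type EYA than in control, 19.3% in all.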
